A study of Mus musculus with 18 samples.

Results

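The genes described here encode the nuclear subunits of the oxidative phosphorylation machinery. They are the protein-coding genes whose mouse symbol begins with Ndufa, Ndufb, Ndufc, Ndufs, Ndufv, Cox4 to Cox8, Uqcr or Atp5, and 89 of the 21519 protein-coding genes in the count table qualified. The symbol rule itself uses no measured value, although it was set with earlier results of these data known. By role, 36 encode subunits of complex I, 8 encode complex I assembly factors of the Ndufaf type, 8 belong to complex III, 20 to complex IV and 17 to the ATP synthase. Of these 89 genes, 82 had enough counts to be tested, among 13438 tested genes in all. The symbol rule left out complex II, cytochrome c, cytochrome c1 (Cyc1, a complex III subunit) and the 13 subunits encoded in the mitochondrial genome, which are given separately.

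The established wild-type line E14 (labelled 129m wt), of mouse embryonic stem cells (mESCs), was grown for 24 h in serum and LIF, a cytokine that sustains self-renewal. All of them grew on StemBond hydrogels, polyacrylamide gels to which fibronectin was tethered through the co-factor 6-acrylamidohexanoic acid (AHA). Soft gels had a stiffness near 750 Pa and stiff gels one near 160 kPa. AHA, which sets how firmly the matrix protein is held, was low at 16 mM, mid at 48 mM and high at 80 mM, on either kind of gel. Each of the 6 groups had 3 libraries of total RNA, and no group on plastic was among them. Because E14 is 1 line, all libraries shared its genotype. Nothing in the labels said that the 3 libraries of a group came from separate cultures, so p-values measure the spread between these libraries only.

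Oxidative phosphorylation passes electrons from NADH through complex I (NADH dehydrogenase), complex III (the cytochrome bc1 complex) and complex IV (cytochrome c oxidase) to oxygen, and the proton gradient built on the way drives the ATP synthase. Naive mESCs respire actively as well as using glycolysis, whereas the primed cells of the later epiblast lean on glycolysis. Subunits of a complex are assembled in fixed ratios from proteins of the nuclear and the mitochondrial genome, helped by assembly factors.

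Libraries held between 5850621 and 9290261 counts at genes, and the 89 genes took 0.647 to 0.701% of the protein-coding counts. Counting noise alone did not account for the spread within a group (chi-square per degree of freedom 1.81 to 2.99 over 18 pairs of replicates). Replicate 1 of the soft, high AHA group stood apart, with spike-in RNA at 1.37% of its counts against 0.607 to 0.725% in the other 17 libraries, and it was left out below unless stated otherwise. The stem cell markers Pou5f1 (513 to 598 CPM), Sox2 (272 to 365 CPM) and Nanog (101 to 146 CPM) were present in every library (CPM, the TMM-scaled count relative to all tested counts of a library). Their summed level was 974 to 1075 CPM in the soft and 900.4 to 1012 CPM in the stiff libraries. Markers of fibroblasts or feeder cells were also above 3 counts in every library for 3 of 3 genes (Col1a1, Col1a2 and Thy1). These summed to 105 to 184 CPM in the soft and 157 to 226 CPM in the stiff libraries.

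Several of these genes have near-identical processed copies elsewhere in the genome, which decides how far their counts can be read. Each main transcript was cut into windows of 50 bases. For 47 of the 89 genes, at least 1 window was also found in a transcript of another gene of any kind, on either strand. A counted pseudogene sharing at least 10% of a gene's windows was assigned to 16 of them. The start of the coding sequence shows the problem for Ndufs5, an accessory subunit of complex I on chromosome 4, and Atp5g2, which encodes the membrane ring subunit c of the ATP synthase on chromosome 15. The first 50 coding bases of Ndufs5 were identical to its processed pseudogene BC002163 on chromosome 16, and those of Atp5g2 to the pseudogene Gm10175 on chromosome 7. A read that lies wholly within either stretch cannot be assigned to 1 gene by its sequence. They are printed from the GENCODE transcripts in lower case, with no base set apart because the copies do not differ here:
Ndufs5 and BC002163: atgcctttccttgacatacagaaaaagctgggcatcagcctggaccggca
Atp5g2 and Gm10175: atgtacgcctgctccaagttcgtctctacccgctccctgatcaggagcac

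Promoters of the genes were also compared, because a shared promoter feature would be independent of the symbol rule. RefSeq promoter windows (250 bases before to 50 bases after the start, build GRCm38.p6) were matched for 73 of the 89 genes, in 78 windows, and searched on both strands. The letters GCGCATGCG, the core of the site of NRF1, a factor known to act on respiratory genes, were in 12.8% of the windows of these genes and in 1.75% of all 32851 windows. AAGATGGCG, bound by YY1, was in 10.3% against 1.40%. CCGGAAG, bound by ETS factors such as GABPA, was in 20.5% against 8.86%. GGGCGG, bound by SP1, was in 43.6% against 35.7%, and TCAAGGTCA, bound by oestrogen-related receptors, was in 1.28% against 0.423%. The 32851 windows belonged to 27025 genes of every kind, and a match describes the letters only. The window of Ndufa6 is printed because Ndufa6 was the only gene of the set that passed the test between substrates. Those of Cox6a1 and Atp5j are printed because they hold the motifs that were more frequent in these genes. Capitals mark the motif letters on either strand. The windows lie at chr15:82354242-82354541, chr5:115348909-115349208 and chr16:84834927-84835226, all on the minus strand, and are written 5′ to 3′ along that strand:
Ndufa6: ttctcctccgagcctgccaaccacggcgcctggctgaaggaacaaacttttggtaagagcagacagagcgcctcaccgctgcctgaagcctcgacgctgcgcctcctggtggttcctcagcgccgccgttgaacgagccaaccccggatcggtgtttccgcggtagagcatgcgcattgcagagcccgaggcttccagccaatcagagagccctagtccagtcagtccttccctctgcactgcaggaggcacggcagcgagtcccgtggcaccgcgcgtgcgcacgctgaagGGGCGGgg
Cox6a1: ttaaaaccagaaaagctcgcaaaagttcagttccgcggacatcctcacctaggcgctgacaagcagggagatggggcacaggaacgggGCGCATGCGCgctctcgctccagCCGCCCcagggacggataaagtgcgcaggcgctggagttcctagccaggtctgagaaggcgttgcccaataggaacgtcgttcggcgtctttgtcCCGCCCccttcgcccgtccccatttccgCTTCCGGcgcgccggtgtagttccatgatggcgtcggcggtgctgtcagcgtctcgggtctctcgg
Atp5j: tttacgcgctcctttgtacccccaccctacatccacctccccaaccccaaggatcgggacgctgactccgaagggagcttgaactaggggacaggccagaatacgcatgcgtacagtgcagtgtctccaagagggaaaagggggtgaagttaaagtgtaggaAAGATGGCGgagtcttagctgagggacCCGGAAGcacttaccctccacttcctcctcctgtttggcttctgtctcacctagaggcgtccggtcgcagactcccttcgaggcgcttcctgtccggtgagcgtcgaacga
In Cox6a1 the capitals mark 1 overlapping pair of NRF1 letters, 1 ETS match and 2 SP1 matches. In Atp5j they mark 1 YY1 and 1 ETS match. A further Atp5j window, at chr16:84835576-84835875, held 2 SP1 matches and neither of these motifs. The Atp5j gene overlaps Gabpa, the gene of an ETS factor on the opposite strand, over 12.7% of its exon bases. The Ndufa6 window held 1 SP1 match and none of the other 4 motifs.

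Levels differed far more between genes than between substrates. Per kb of exon, the mean of 17 libraries was highest for Atp5a1 (353 CPM per kb) and Atp5b (292 CPM per kb), which encode the alpha and beta subunits that form the catalytic head of the ATP synthase. The 5 subunits of that F1 head had a median of 77.3 CPM per kb, and the 12 genes of its membrane part and stalks had a median of 18.8 CPM per kb. Complex I also held a wide range, although nearly all subunits are present in 1 copy per complex. Ndufb2, an accessory subunit of the membrane arm, stood at 1.77 CPM per kb. Ndufb10, another accessory subunit of that arm, stood at 82.1 CPM per kb. The gap was narrower before scaling by exon bases, with 6.98 to 13.3 CPM for Ndufb2 and 86.9 to 111 CPM for Ndufb10 per library. Its size thus depended on the divisor. The 7 core subunits made in the nucleus had a median of 36.8 CPM per kb and the 29 accessory subunits 26.8 CPM per kb.

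Complex III ran from 13.0 (Uqcrb) to 70.1 CPM per kb over its 8 genes. Uqcrc1, a core protein, stood at 70.1 CPM per kb, and the Rieske iron-sulfur protein gene Uqcrfs1 was level with it at 70.1 CPM per kb. In complex IV the highest were Cox8a (140 CPM per kb) and Cox4i1 (139 CPM per kb), which encode the widely expressed forms of these subunits. Assembly factors of complex I lay lower, from 4.81 (Ndufaf3) to 20.4 CPM per kb (Ndufaf8), with Ndufaf6 next at 13.2 CPM per kb. Scaling by the length of the main transcript instead of all exon bases raised the value where the main transcript was shorter, and changed some orders. Atp5b (646 CPM per kb) then stood above Atp5a1 (448 CPM per kb).

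**Figure D1:**
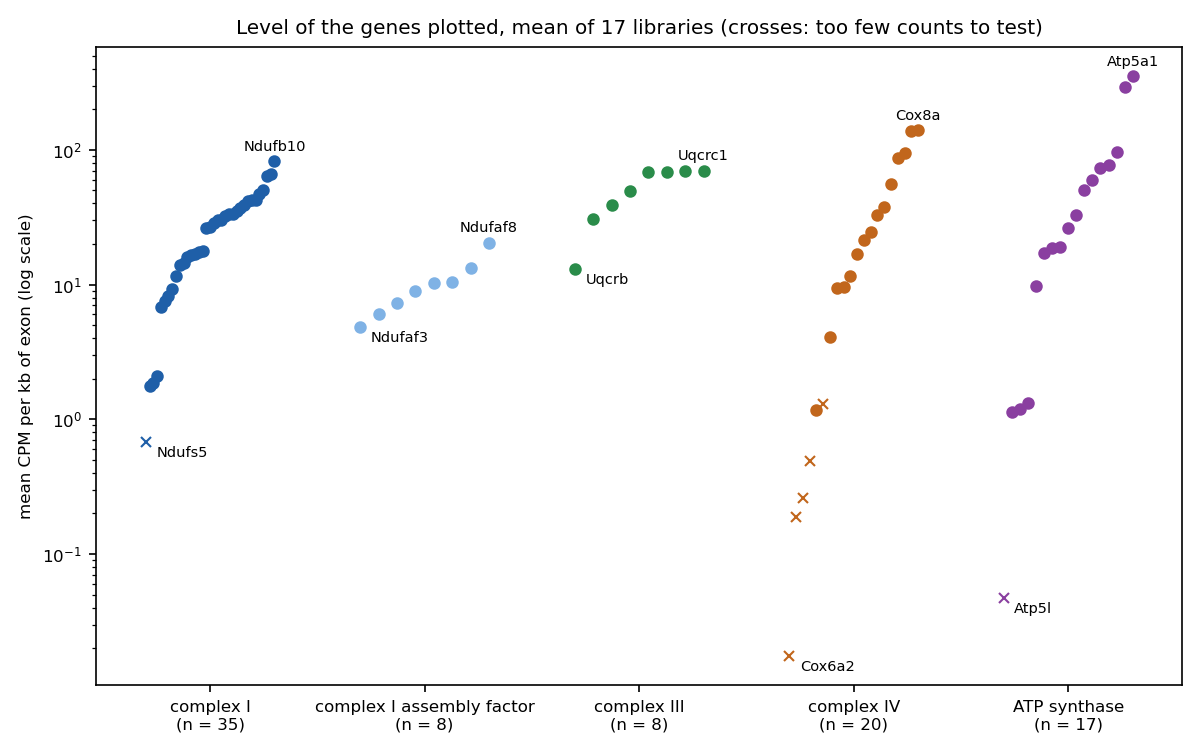
Mean level of 88 of the 89 genes over 17 libraries, in CPM per kb of exon on a log axis, by role, with genes in rising order within a role and the lowest and highest plotted gene named. Crosses are the 7 genes with too few counts to test, and the tested genes span from 1.13 (Atp5g1) to 353 CPM per kb (Atp5a1) in the ATP synthase and from 4.81 to 20.4 CPM per kb in the assembly factors.

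Where a subunit exists in several isoforms, mESCs used mainly the widely expressed form. Cox4i1 held 99.6% of the counts of its pair, against Cox4i2, an isoform known from lung (1 to 11 counts per library). Cox6a1 held 99.98% against the muscle isoform Cox6a2, which had 1 count over all 18 libraries. Cox8a held 99.8% of its family, with Cox8b, the heart and skeletal muscle form (0 to 6 counts), and the testis form Cox8c (0 to 2 counts) near the limit of detection. Cox7b held 99.4% against Cox7b2 (1 to 9 counts). In the Cox7a family, Cox7a2 held 53.4%, the related Cox7a2l, which takes part in joining complexes III and IV, 42.8%, and the muscle form Cox7a1 3.79% (4 to 19 counts). The testis isoform Cox6b2 was the exception, with 21.02% of the counts of its pair and 39 to 80 counts in every library, beside Cox6b1 with 79.0%. All isoform shares are of raw counts and are not scaled by gene length. Per kb of exon, Cox6b2 stood at 9.63 and Cox6b1 at 55.8 CPM. Likewise Cox7a2l stood at 16.8 and Cox7a2 at 32.9 CPM per kb.

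The 3 genes of ATP synthase subunit c encode the same mature protein. Atp5g3 held 93.1% of their counts, Atp5g1 4.90% and Atp5g2 1.96% (4 to 22 counts per library). For Atp5g2, 87.4% of the windows were shared with other genes, so its share was uncertain. Ndufa4l2, a relative of the complex IV subunit Ndufa4, had 0 to 8 counts.

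Among widely expressed subunits, 2 had too few counts to test. Atp5l, subunit g of the ATP synthase, had 0 to 4 counts per library, with 84.8% of its windows shared, and its pseudogenes together had 0 to 5. Ndufs5 had 0 to 7 counts, while its pseudogene BC002163, printed above, had 89 to 206 counts. Low but testable were Ndufb4 (7 to 34 counts, 37.0% of windows shared), Cox7c (28 to 105 counts, 53.0%) and Uqcrb (41 to 85 counts, 43.4%), named for their shared windows. Other tested genes were as low with few or no windows shared. Among them were Atp5g1 (20 to 52 counts, 11.6%) and the isoforms Cox6b2 (39 to 80 counts, 0%) and Cox7a1 (4 to 19 counts, 0%). The remaining untested genes were Cox6a2, Cox7b2, Cox8b, Cox8c and Ndufa4l2, which are tissue isoforms or, for Ndufa4l2, the relative of Ndufa4. The 12 genes with over 30% of windows shared had a median of 22.8 CPM per kb of transcript, against 46.3 CPM per kb in the 42 genes with none. In the 35 genes with some but at most 30% of windows shared, the median was 45.9 CPM per kb. Whether shared sequence lowered any of these counts was not tested.

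**Figure D2:**
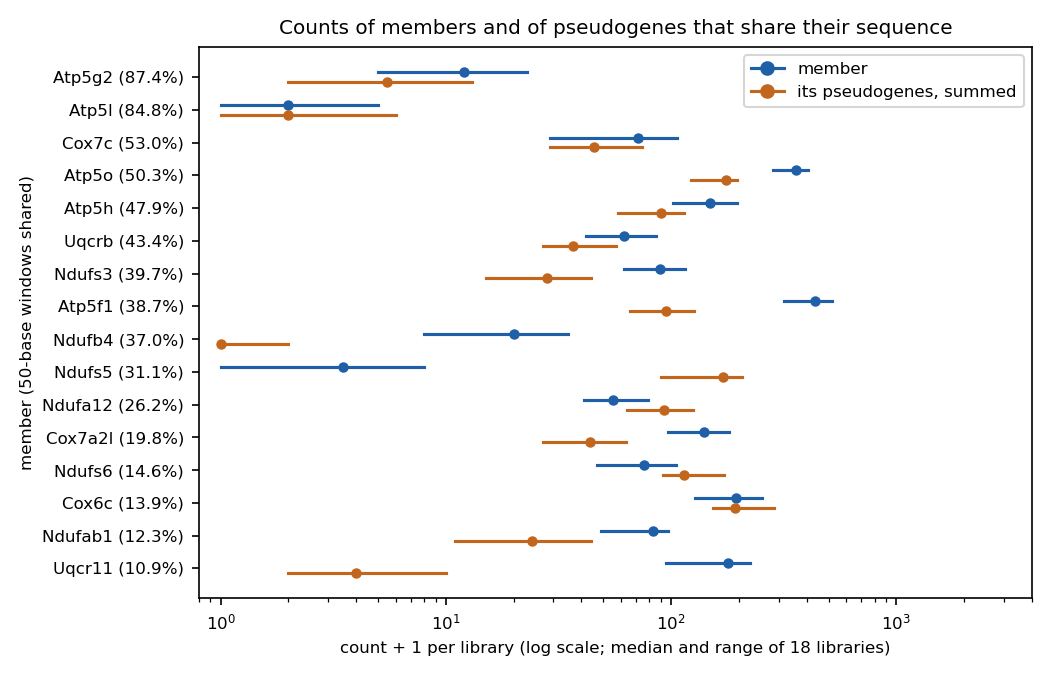
Counts per library, plus 1 on a log axis, for the 16 genes with a counted pseudogene that shares at least 10% of their windows (blue) and for those pseudogenes summed (orange), as the median and range of 18 libraries. Ndufs5 is the extreme, with a median of 2.5 counts beside 168.5 at BC002163, while for Atp5f1 and Atp5o the gene itself held most of the counts.

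The comparison of soft with stiff gels asks whether the respiratory genes differ with substrate stiffness. Averaged over the 3 AHA concentrations, Ndufa6, which encodes an accessory subunit of the complex I arm that protrudes into the matrix, was higher on soft gels, and the other 81 tested genes did not pass the test. Counted over all tested genes, 8.59% were called in this comparison (edgeR quasi-likelihood test, adjusted p under 0.05 by Benjamini-Hochberg), against 1 of these 82. At an unadjusted p under 0.05 there were 10 of 82 (12.2%), 6 higher and 4 lower on soft gels, against 20.5% of all tested genes. The median log2 fold change of soft minus stiff was 0.01 for the 82 genes and 0.00 for all tested genes, with 46 of the 82 above 0. Over the leave-one-out fits the median of the 82 ran from -0.01 to 0.03. In none of the 82 did the 8 soft and 9 stiff libraries separate without overlap, a pattern found in 1.27% of tested genes.

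Ndufa6 (chr15:82350140-82354322, minus strand, build GRCm38) stood at 62.0, 57.0 and 60.8 CPM in the soft, low AHA libraries and at 52.4, 59.4 and 46.6 CPM in the stiff, low AHA libraries. With mid AHA its level was 65.6, 65.1 and 60.8 CPM on soft gels and 55.6, 61.3 and 54.0 CPM on stiff gels. With high AHA it was 59.4 and 64.8 CPM on soft gels and 58.2, 55.4 and 53.2 CPM on stiff gels. The group means were therefore higher on soft gels at each AHA concentration, and single libraries overlapped at low and mid AHA but not at high AHA. The averaged difference was 0.17 on the log2 scale (SE 0.055, 95% interval 0.06 to 0.28), a 1.12-fold level on soft gels (adjusted p = 0.0359, edgeR). By AHA concentration it was 0.19, 0.16 and 0.15 at low, mid and high AHA, with adjusted p of 0.352, 0.459 and 0.646 in the same edgeR fit.

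This call was close to the threshold. DESeq2 gave Ndufa6 an adjusted p of 0.0539. Leaving out 1 library at a time kept the direction in all 17 fits (0.14 to 0.20) but lost the call in 10 of them. It was lost without soft, low AHA replicates 1 or 3, soft, mid AHA replicates 1 or 2, soft, high AHA replicate 3, stiff, low AHA replicates 1 or 3, stiff, mid AHA replicates 1 or 3, or stiff, high AHA replicate 3, with an adjusted p of 0.0507 to 0.137 in edgeR. Ndufa6 shared no window of its main transcript with another gene and no exon base with a gene on the opposite strand. Of the 6 cell type markers, 3 passed the same comparison: Col1a1 was lower on soft gels (log2 fold change -0.49, adjusted p = 0.00282, edgeR), and Nanog (0.38, adjusted p = 5.08e-14, edgeR) and Sox2 (0.19, adjusted p = 9.4e-08, edgeR) were higher. Pou5f1 (0.03, adjusted p = 0.514), Col1a2 (-0.13, adjusted p = 0.479) and Thy1 (-0.22, adjusted p = 0.630) did not pass in edgeR. The part of these markers in the Ndufa6 difference was not tested. In bulk RNA, fewer cells of a type and less RNA per cell cannot be told apart.

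**Figure D3:**
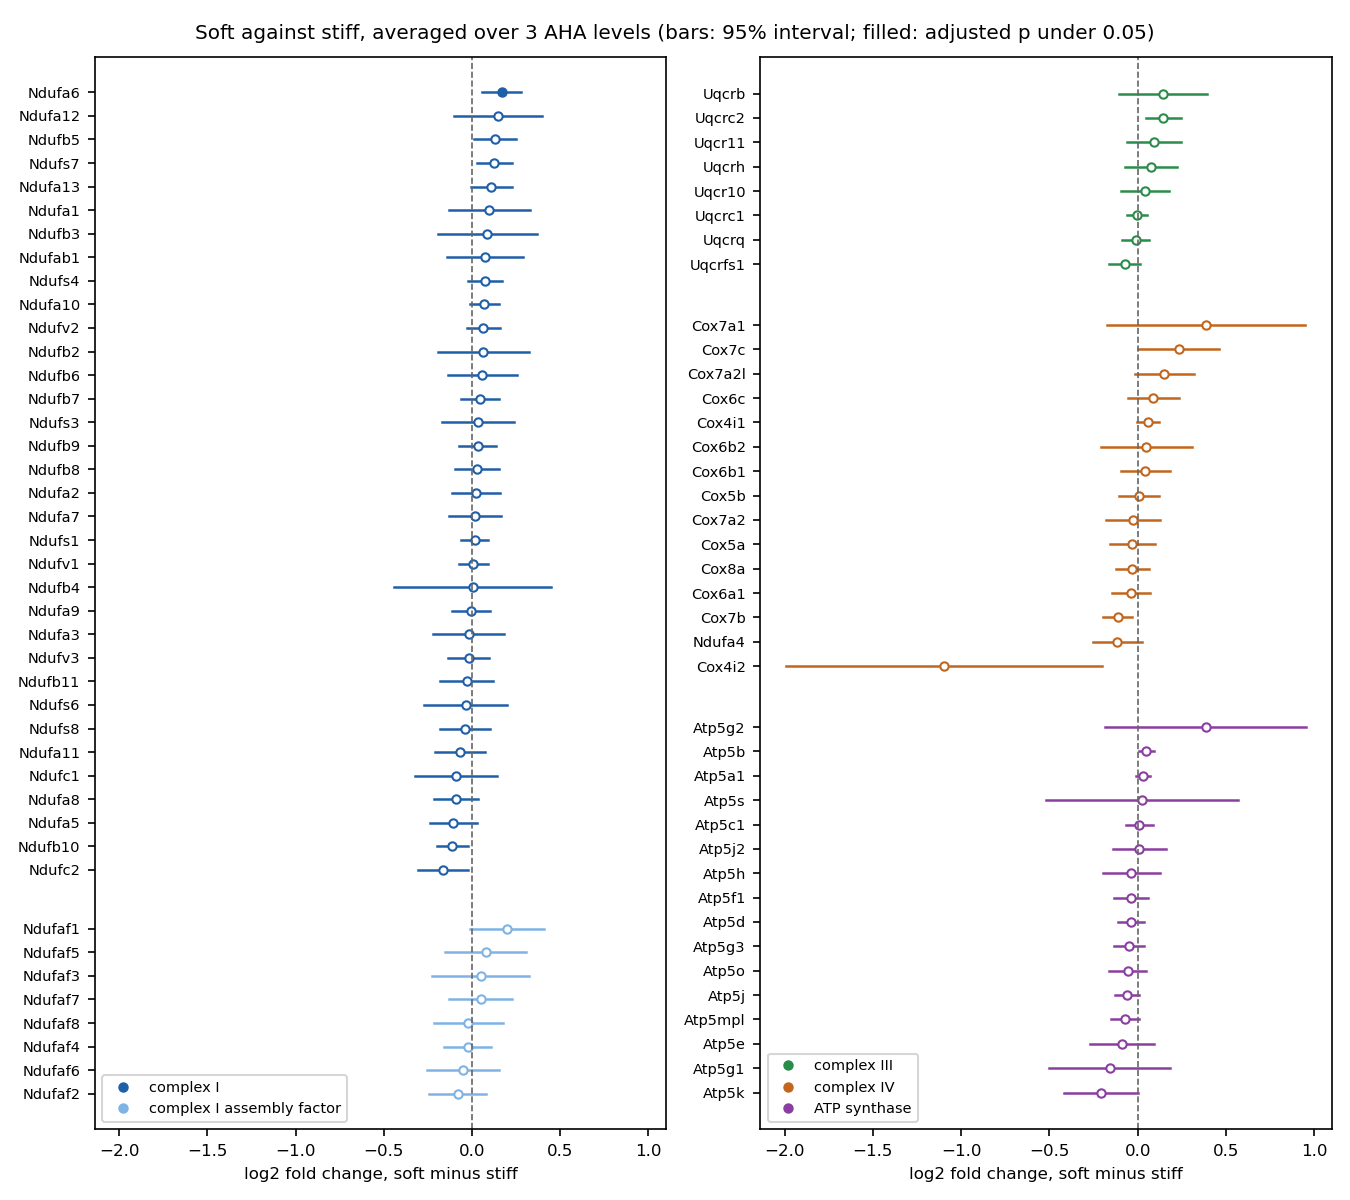
Log2 fold change of soft minus stiff gels, averaged over AHA, for 81 of the 82 tested genes by role, with 95% intervals. Ndufa6 (0.17) is the only filled point, and the wide intervals belong to genes with few counts such as Cox4i2, Cox7a1, Atp5g2, Atp5s and Ndufb4.

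In complex I, 23 of 35 tested genes lay above 0 and the median was 0.02 (0.00 to 0.04 over the leave-one-out fits). The 7 core subunits, among them those with the flavin and iron-sulfur clusters, ranged from -0.04 to 0.13 with a median of 0.02, and none passed the test. Next to Ndufa6, the highest was the accessory gene Ndufa12 (0.15, 95% interval -0.10 to 0.40, and 0.08 to 0.22 over the leave-one-out fits). At the lower end, Ndufc2, an accessory subunit of the membrane arm, had 30.5 to 38.7 CPM (median 31.9) in soft and 30.6 to 42.4 CPM (median 39.1) in stiff libraries. Its difference was -0.16 (95% interval -0.30 to -0.02, adjusted p = 0.153, edgeR). Ndufb10 was next at -0.11 (95% interval -0.20 to -0.03, adjusted p = 0.100, edgeR).

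Assembly factors of complex I were evenly split, with 4 of 8 above 0, none that passed the test and a median of 0.01 whose sign was not fixed (-0.01 to 0.03 over all alternatives). Ndufaf1, which helps to build the membrane arm, was the highest (0.20, 95% interval -0.01 to 0.41, adjusted p = 0.278, edgeR), followed by Ndufaf5 (0.08, interval -0.15 to 0.31). Lowest were Ndufaf2 (-0.08, interval -0.24 to 0.08) and Ndufaf6 (-0.05, interval -0.25 to 0.15). Leaving out 1 library at a time moved Ndufaf1 from 0.12 to 0.26, Ndufaf5 from 0.01 to 0.14 and Ndufaf2 from -0.14 to -0.03, and turned the sign of Ndufaf6 (-0.17 to 0.03). With soft, high AHA library 3 left out in place of library 1, the sign of Ndufaf5 turned as well (-0.08). Exons of Ndufaf2 overlapped a gene on the opposite strand over 65.7% of their bases, and without stated strand use its counts were uncertain.

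In complex III, 5 of 8 genes lay above 0, none passed, and the median was 0.06. Leaving out 1 library at a time moved that median from 0.02 (without soft, high AHA replicate 3) to 0.09 (without soft, high AHA replicate 2). Uqcrc2, a core protein of the complex, had 75.7 to 95.9 CPM (median 82.5) in soft libraries and 68.0 to 90.1 CPM (median 73.4) in stiff libraries. The overlap came mainly from stiff, high AHA replicate 2 and stiff, mid AHA replicate 2. Its averaged difference was 0.14 (SE 0.050, 95% interval 0.04 to 0.24) with an adjusted p of 0.0542 in edgeR, just short of the threshold. Over the leave-one-out fits its adjusted p ran from 0.00867 to 0.402, and 6 of 17 called it. Without soft, high AHA replicate 3 its estimate was 0.09. Its exons overlapped Pdzd9 on the opposite strand over 19.8% of their bases. Uqcrb, a small subunit whose pseudogenes held 26 to 56 counts per library, had the same estimate with a wide interval (0.14, -0.10 to 0.39, and 0.08 to 0.25 over the leave-one-out fits). Uqcrfs1 was the lowest (-0.07, interval -0.16 to 0.02, and -0.10 to -0.05 over the leave-one-out fits), then Uqcrq (-0.01, interval -0.09 to 0.07), and the abundant Uqcrc1 had an estimate of -0.00 (interval -0.06 to 0.05).

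In complex IV, 8 of 15 genes lay above 0, none passed, and the median of 0.01 had no fixed sign (-0.04 to 0.05 over all alternatives). Cox7b, a small accessory subunit, had 99.9 to 123 CPM (median 108) in soft and 106 to 136 CPM (median 119.5) in stiff libraries. The difference was -0.11 (SE 0.043, adjusted p = 0.0807, edgeR), and it was -0.14, -0.16 and -0.04 at low, mid and high AHA. Its soft and stiff libraries overlapped. Without stiff, mid AHA replicate 2, its highest library, the difference was -0.06 (adjusted p = 0.446, edgeR), and 3 of the 17 leave-one-out fits called it. Ndufa4 (-0.11, 95% interval -0.26 to 0.03), Cox7c (0.23, interval 0.00 to 0.46) and Cox7a1 (0.39, interval -0.18 to 0.95, and 0.24 to 0.49 over the leave-one-out fits) did not pass either. The estimate furthest from 0 belonged to Cox4i2 (-1.10, interval -1.99 to -0.20, adjusted p = 0.124, edgeR), which had 0.16 to 1.81 CPM in soft and 0.49 to 1.98 CPM in stiff libraries. With 1 to 11 counts per library, that estimate rested on few reads. Cox4i1, Cox8a and Cox6a1, the main forms of their subunits, differed by 0.06, -0.03 and -0.04.

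For the ATP synthase, 10 of 16 genes lay below 0, none passed, and the median was -0.04 (-0.06 to -0.02 over the leave-one-out fits). Its abundant genes Atp5b and Atp5a1 were estimated tightly. Atp5b had 1194 to 1295 CPM (median 1269) in soft and 1184 to 1246 CPM (median 1214) in stiff libraries, a difference of 0.05 (95% interval 0.01 to 0.09, adjusted p = 0.121, edgeR). Atp5a1 differed by 0.03 (interval -0.01 to 0.07). Lowest were Atp5k, subunit e of the membrane part (-0.21, interval -0.42 to 0.00), and Atp5g1 (-0.16, interval -0.50 to 0.19). Over the leave-one-out fits Atp5k ran from -0.33 to -0.10 and Atp5g1 from -0.35 to -0.01, in each case without soft, high AHA replicate 3 or 2. With soft, high AHA library 2 left out in place of library 1, the sign of Atp5g1 turned (0.07). Atp5g2 had the highest estimate (0.39, interval -0.18 to 0.95) on 4 to 22 counts per library (0.24 to 0.63 over the leave-one-out fits). Atp5g3, the main source of subunit c, differed by -0.05 (interval -0.13 to 0.03).

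**Figure D4:**
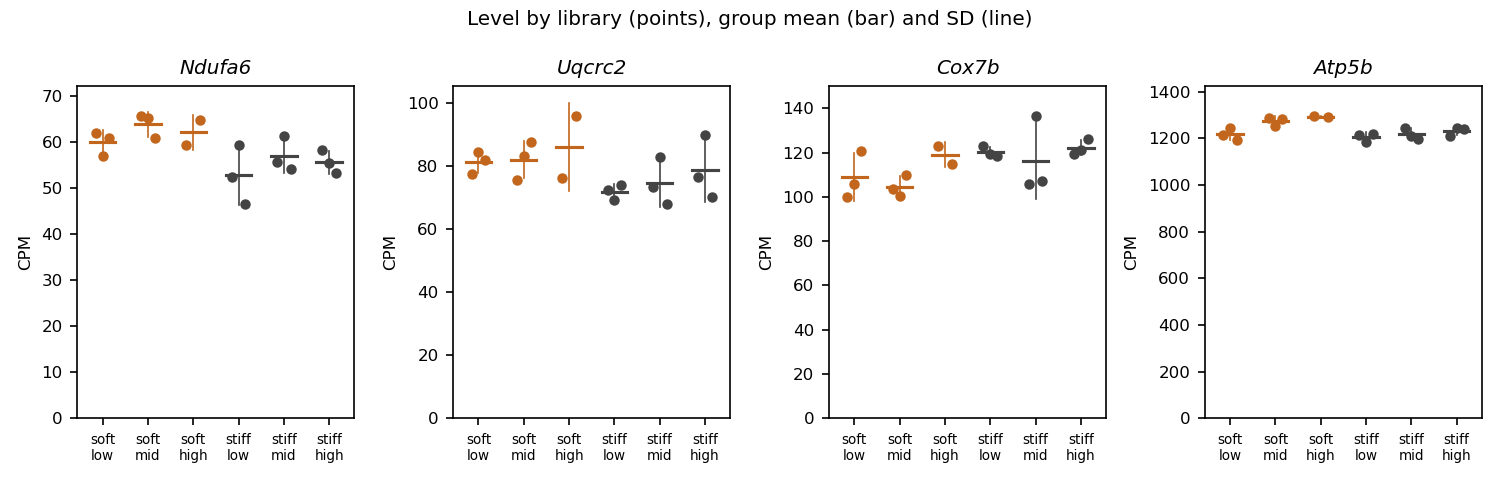
CPM of Ndufa6, Uqcrc2, Cox7b and Atp5b by library (points) in the 6 groups, with the group mean (bar) and SD (line), soft in orange and stiff in grey, from 0. Ndufa6 runs from 46.6 to 65.6 CPM over all libraries and Atp5b from 1184 to 1295 CPM, and soft and stiff libraries overlap for each gene.

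The intervals show what size of change these libraries could have missed. For 55 of the 82 genes (67.1%), the 95% interval of the averaged difference lay within 0.25 on the log2 scale on either side of 0 (1.19-fold), and for 77 (93.9%) within 0.5 (1.41-fold). Over all tested genes these shares were 45.9% and 76.1%. The set was also better covered than the average gene, with a median of 38.7 CPM against 25.1 CPM and a median biological coefficient of variation of 6.92% against 8.13%. A gene that missed the threshold was thus not shown to be equal, but for most of the set a change above 1.41-fold lay outside its interval.

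At single AHA concentrations no gene of the set passed the test of soft against stiff. Over all tested genes, 3.04% were called with low AHA, 2.86% with mid AHA and 0.841% with high AHA. At an unadjusted p under 0.05 there were 12 of the 82 genes (14.6%) with low AHA, 11 (13.4%) with mid AHA and 4 (4.88%) with high AHA in edgeR, against 13.1%, 13.6% and 10.5% of all tested genes. DESeq2 called none of the 82 at any concentration. The lowest adjusted p with low AHA was that of Atp5j, which encodes coupling factor 6 of the ATP synthase stalk (-0.18, adjusted p = 0.0694, edgeR). With mid AHA it was Uqcrq, a small subunit of complex III (0.20, adjusted p = 0.0679, edgeR). With high AHA it was the core complex I gene Ndufs7 (0.26, adjusted p = 0.185, edgeR). The gene with the lowest p was thus a different one at each concentration. A test for unequal stiffness differences among the 3 AHA concentrations called none of the 82 genes (0.0298% of all tested genes, edgeR, with none of the 82 by DESeq2). At an unadjusted p under 0.05 there were 8 of the 82 (9.76%), against 6.71% of all tested genes. Its lowest adjusted p was 0.240, for Uqcrq.

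Changing the AHA concentration at 1 stiffness asks whether the tethering of the matrix matters for these genes, and again none passed. On soft gels, 0.253% of all tested genes were called for high minus low AHA, 0.067% for high minus mid AHA and 0% for mid minus low AHA. On stiff gels the shares were 0.00744%, 0.00744% and 0%. With backgrounds this low, 0 of 82 was no feature of the set. At an unadjusted p under 0.05 in edgeR there were 10, 5 and 13 of the 82 on soft gels (12.2%, 6.10% and 15.9%) in the same order of comparisons, against 8.51%, 6.81% and 6.10% of all tested genes. On stiff gels there were 6, 13 and 3 (7.32%, 15.9% and 3.66%), against 6.04%, 5.83% and 4.99%. The share was above that of all genes in 4 of these 6 comparisons and below it in high minus mid AHA on soft gels and mid minus low AHA on stiff gels, and DESeq2 called none of the 82. The lowest adjusted p-values were 0.226 for Atp5mpl, a small ATP synthase subunit (0.23, high minus low AHA on soft gels, edgeR), and 0.190 for Ndufs4, a complex I subunit (0.34, high minus mid AHA on stiff gels, edgeR).

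By role, mean levels over the stiffnesses differed by less than the spread between libraries. The mean log2 CPM of the 35 complex I genes was 5.20 ± 0.01 (SD, n = 3) in soft, low AHA, 5.16 ± 0.08 (n = 3) in soft, mid AHA, and 5.19 ± 0.06 (n = 2) in soft, high AHA libraries. On stiff gels it was 5.15 ± 0.05, 5.18 ± 0.08 and 5.17 ± 0.06 (SD, n = 3 each). Complex III ran from 5.87 ± 0.11 in stiff, high AHA (n = 3) to 6.00 ± 0.12 in soft, high AHA libraries (n = 2). For the ATP synthase the means ran from 5.73 ± 0.09 in soft, mid AHA (n = 3) to 5.82 ± 0.12 in stiff, low AHA libraries (n = 3). Complex IV had its highest mean in soft, low AHA (4.88 ± 0.06, n = 3) and its lowest in soft, mid AHA libraries (4.72 ± 0.06, n = 3), which did not overlap each other. These groups are the extremes of 6, picked after the values were seen, and their gap was not tested. The complex IV mean weighs low-count isoforms equally. For mid minus low AHA on soft gels the median complex IV gene was at -0.06. Cox4i2 at -1.79 (adjusted p = 0.811, edgeR) and Cox7a1 at -0.65 (adjusted p = 0.897, edgeR) lay furthest from 0. Averaged over AHA, soft minus stiff was 0.02 for complex I, 0.03 for its assembly factors, 0.05 for complex III, -0.00 for complex IV and -0.02 for the ATP synthase. The pooled within-group SD of these means was 0.06, 0.09, 0.08, 0.08 and 0.10 in that order.

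**Figure D5:**
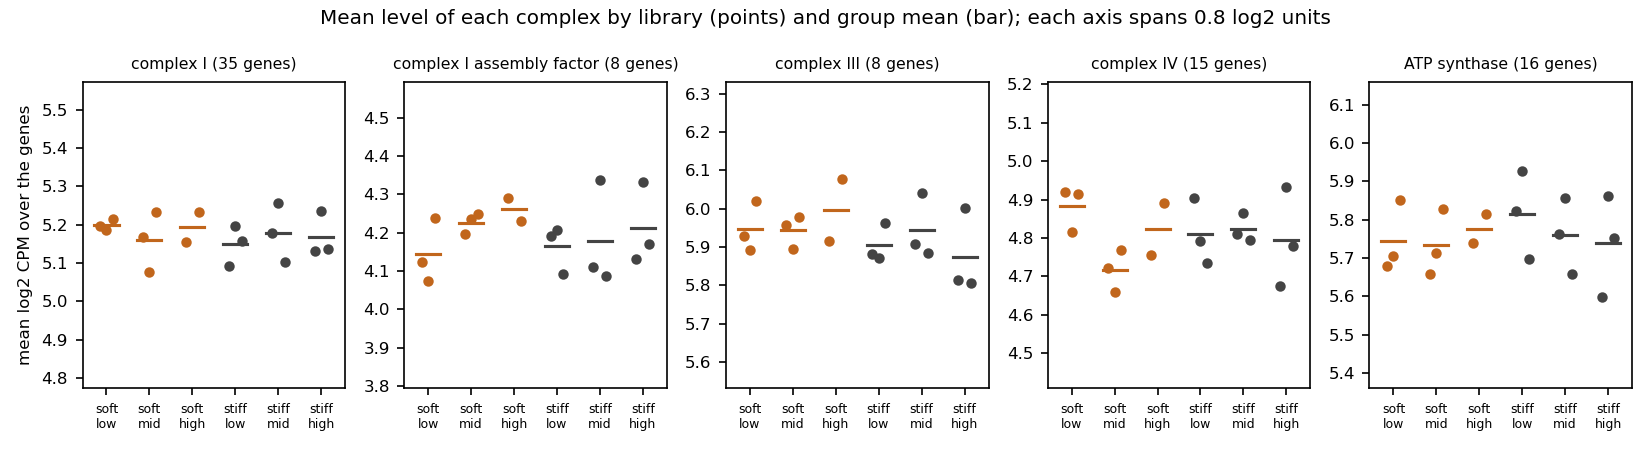
Mean log2 CPM over the tested genes of each role by library (points) and group mean (bar), soft in orange and stiff in grey, with each axis spanning 0.8 log2 units around its own mean. Soft and stiff libraries intermingle in every panel, and the complex IV panel shows the lower soft, mid AHA libraries.

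Subunits of the same complexes that the mitochondrial genome encodes did not pass the test between stiffnesses either. All 13 were tested, 7 lay above and 6 below 0 in the averaged comparison, and the median was 0.02. Their summed level was 11622 to 14314 CPM (median 13068) in soft and 10958 to 14954 CPM (median 13191) in stiff libraries, while the 89 nuclear genes summed to 6612 to 7001 CPM (median 6750) in soft and 6529 to 6979 CPM (median 6706) in stiff libraries. With AHA the signs were less even. On soft gels all 13 lay below 0 for high minus low AHA (median -0.25, from -0.61 to -0.07), 4 of them at an unadjusted p under 0.05 (8.51% of all tested genes), and the lowest adjusted p was 0.226 (mt-Nd2, edgeR). The summed level was 13568 to 14314 CPM in the 3 soft, low AHA libraries and 11622 and 12535 CPM in the 2 soft, high AHA libraries, while the 89 nuclear genes summed to 6612 to 6747 CPM and to 6901 and 7001 CPM in the same libraries. Neither sum overlapped between these groups, and they lay in opposite directions, but the groups held only 3 and 2 libraries. How often other sums separate on so few libraries was not tested. Abundant genes such as Atp5b weigh most in the nuclear sum. The mean log2 CPM of the 82 tested nuclear genes, which weighs them equally, did overlap. It was 5.18 to 5.27 in the soft, low AHA libraries and 5.18 and 5.27 in the soft, high AHA libraries. On stiff gels 12 of the 13 mitochondrial genes lay below 0 (median -0.17), and none was called there either. The stiff libraries overlapped, with sums of 13245 to 14140 CPM with low AHA and 10958 to 14954 CPM with high AHA. These genes are transcribed together from 1 small genome and their signs are not independent. For the 82 nuclear genes the medians of the same comparisons were 0.04 and 0.02, with no fixed sign over the leave-one-out fits (-0.02 to 0.06 and -0.02 to 0.04).

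Other genes of the pathway were given from lists of related genes. Complex II, which feeds electrons from succinate, had 0 of 4 genes called (-0.05 to 0.07). Cyc1 and the cytochrome c gene Cycs were not called, at -0.00 and -0.25 (Cycs, adjusted p = 0.0940, edgeR). None of the 6 complex III assembly genes, the 18 tested of 21 complex IV assembly genes, the 6 tested of 8 genes for ATP synthase assembly and inhibition, the 18 tricarboxylic acid cycle genes or the 16 tested of 17 regulators of mitochondrial biogenesis passed the test. Their medians were -0.06, 0.02, -0.05, 0.00 and -0.00 in that order. Among 10 tested of 11 other complex I assembly genes, 1 was called, near the 8.59% of all tested genes. That gene, Nubpl, which delivers iron-sulfur clusters to complex I, was higher on soft gels, with 5.72 to 10.5 CPM (median 8.88) against 3.01 to 7.73 CPM (median 5.47). Its averaged difference was 0.57 (SE 0.16, 95% interval 0.25 to 0.89, adjusted p = 0.0119, edgeR). The call was lost without soft, high AHA replicate 2 (0.48, adjusted p = 0.105, edgeR) and without stiff, low AHA replicate 1 (0.45, adjusted p = 0.0671, edgeR), and it held in the other 15 fits.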

How the data were processed

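Total RNA of 18 libraries was made into sequencing libraries with a Pico mammalian v2 kit. The authors aligned reads with GSNAP to GRCm38/mm10 and counted them with HTSeq per gene of Ensembl 81, and the submitters' processing notes also name Trim Galore 0.4.4 and DESeq2. Replicates were numbered 1 to 3 within a group in sample order, as names only. The deposited values were raw counts per gene, with no normalisation. Whether strand was used in counting was not given in the sources used here. The 5 summary lines, 61.5 to 64.0% of each column, entered neither library sizes nor tests. Names, biotypes, coordinates and exon lengths came from GENCODE M21 of the same build.

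After filterByExpr with a minimum count of 10, protein-coding genes were fitted in edgeR 4.0.16 (R 4.3.3) with TMM scaling, a robust quasi-likelihood fit with 1 coefficient per group over 17 libraries (8 soft, 9 stiff), and Benjamini-Hochberg adjustment over 13438 genes within each contrast. The 18th library was left out for its spike-in share, the measure by which the study discarded outliers. Log2 CPM used a prior count of 2. Intervals used the t distribution of the fit and measure the spread between libraries. Depth limited the precision of genes under about 10 counts per library.

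Genes were named by rule: every gene called in a contrast, the 2 highest and 2 lowest averaged differences and the 2 highest levels in each role, all isoform families, all untested genes, and called genes of the pathway lists. Values of 1 gene of the set are not reported here, though it stays in the counts and medians. Genes with the lowest adjusted p in a contrast, genes low in counts or rich in shared windows, and genes called only in an alternative were named after their values were seen. The genes, lists and roles were chosen with earlier results of these data known. Alternatives were RLE scaling, library totals, DESeq2 1.42.0, a minimum of 2 counts over all libraries, all 18 libraries, fits of only the groups compared and leaving out each library. Leaving out another soft, high AHA library in place of replicate 1, and adding pseudogene counts to their gene, were chosen after seeing the data.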

Additional observations from a re-analysis of the deposited data

Results flagged for a closer look

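Counts at processed pseudogenes lay outside the comparisons and were above the 3 counts that a count of 0 allows in every library for 4 of the 5 genes of the set whose pseudogenes held more counts over all libraries than the gene. The other of these was Atp5l, with 0 to 5 counts per library at its pseudogenes. The median per library was 168.5 at BC002163, which shares 31.1% of the windows of Ndufs5, and that gene had a median of 2.5. At Ndufs6b the median was 112.5 beside 75 at Ndufs6, at Gm15920 it was 91.5 beside 54 at Ndufa12, and at Cox6c2 it was 191 beside 193 at Cox6c, where only the totals over 18 libraries were higher at the pseudogene (3626 against 3334). When pseudogene counts were added to their gene, the number of called genes in the averaged comparison of soft with stiff gels was again 1 (Ndufa6). The origin of these reads was not tested. No gene of the set had stiffness differences that were called unequal among AHA concentrations, and groups of 3 libraries were too small for a check of single outlying values.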

How the results depend on the processing

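The number of called genes changed under some alternatives. In the averaged comparison of soft with stiff gels it was 1, and 3 with library totals (Atp5b, Ndufa6 and Uqcrc2), 0 with DESeq2, 2 with a minimum of 2 counts over all libraries (Ndufa6 and Uqcrc2), 2 with all 18 libraries (Cox7b and Ndufa6), 3 with soft, high AHA library 2 left out in place of library 1 (Cox7b, Ndufa6 and Uqcrc2), and 2 with library 3 left out instead (Ndufa6 and Ndufb10). It was 1 with RLE scaling and with pseudogene counts added. Over all tested genes the calls moved too, from 1154 to 1216, 913, 1126, 1318, 1384 and 1278 under the first 6 of these alternatives in the order given. Leaving out 1 library at a time gave 0 to 2, with 0 without soft, mid AHA replicate 2, soft, high AHA replicate 3, stiff, low AHA replicate 1 or stiff, high AHA replicate 3. With low AHA the count went from 0 to 1 (Atp5j) in a fit of only the groups compared, and was 0 to 1 over leave-one-out fits. With mid AHA it was 1 (Uqcrq) with library totals and 0 to 2 when a library was left out. With high AHA it was 0 to 1, and for high minus low AHA on soft gels 0 to 2 (Ndufs6 and Uqcrh without soft, high AHA replicate 3), over leave-one-out fits. Among named genes with estimates near 0, Uqcrq ran from -0.033 to 0.018 and Ndufaf6 from -0.17 to 0.032 over leave-one-out fits. With soft, high AHA library 3 left out in place of library 1, Ndufaf6 was 0.017 and Ndufaf5 -0.077, and with library 2 left out Atp5g1 was 0.068. The causes were not tested. No paired analysis was possible because the labels number the samples in 1 series through all groups, and the replicate numbers used here follow that order and pair nothing.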
